A study of Mus musculus with 6 samples.

Results

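The clock output transcription factors described here are 8 genes, Dbp, Tef, Hlf, Nfil3, Bhlhe40, Bhlhe41, Ciart and Rora, found by symbol among 43629 named gene models of a read count table. All 8 were found, and all 8 passed the filter on low counts. The hearts came from male C57BL/6 mice, aged 22 months in the old group and 2 months in the young group, with 3 animals per age, and the labels name no transgene or treatment. All animals were kept under alternating light and dark periods of equal length and ate normal chow. No source used here gives the clock hour at which the hearts were taken.

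The circadian clock is a feedback loop of transcription factors that runs in nearly every cell, heart muscle cells included. CLOCK and BMAL1 (gene Arntl) bind E-box sequences and switch on genes whose products, the PER and CRY proteins, then inhibit them. A set of further factors passes the rhythm on to other genes. DBP, TEF and HLF, the PAR bZIP proteins, activate genes through D-box sequences, and NFIL3 (also called E4BP4) represses genes through the same sequences. BHLHE40 and BHLHE41 (DEC1 and DEC2) repress from E-boxes, CIART (CHRONO) inhibits CLOCK-BMAL1 itself, and RORA activates genes through RORE sequences. The RNA of several of these genes rises and falls over the day, so with the hour of each heart unknown, and not known to be the same for all 6, a difference in level cannot be told apart from one in daily phase or in hour of dissection.

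Promoter sequences are shown first, for the genes that hold a motif of the clock factors near their start. RefSeq promoters (GRCm38.p6, 250 bases before to 50 after the start) were matched for 7 of the 8 genes, all except Bhlhe40. They were searched on both strands for the E-box CACGTG, the D-box TTANGTAA and the RORE core TAGGTCA, and no motif overlaps another in the sequences below. An E-box was found in 3 genes, a RORE core in 1 gene and a D-box in 0 of the 7. Capitals mark the motif, each sequence is written 5′ to 3′ on the strand of its gene, and Tef has 2 annotated starts.
Ciart: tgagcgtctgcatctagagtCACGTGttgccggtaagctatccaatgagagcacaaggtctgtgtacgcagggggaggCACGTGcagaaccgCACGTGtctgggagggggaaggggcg
Bhlhe41: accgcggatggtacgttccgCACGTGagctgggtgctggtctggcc
Tef, first start: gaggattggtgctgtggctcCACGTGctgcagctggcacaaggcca
Tef, second start: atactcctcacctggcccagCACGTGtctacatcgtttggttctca
Nfil3: cgctcggaacTGACCTActaacacaca

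The Ciart sequence lies at chr3:95882247-95882364 on the minus strand, and its 3 E-boxes begin 116, 58 and 44 bases before the RefSeq start. The Bhlhe41 sequence lies at chr6:145865548-145865593 on the minus strand, with its E-box 153 bases before the start. Both Tef sequences are on the plus strand, at chr15:81802526-81802571 and chr15:81811256-81811301, with E-boxes 127 and 138 bases before the starts. The Nfil3 sequence lies at chr13:52981035-52981061 on the minus strand, where the RORE core reads on the opposite strand and begins 12 bases before the start. These starts are those of RefSeq and differ from the gene ends of GENCODE M21 given further below. By GENCODE M21 Tef begins at 81802421 and Nfil3 at 52981073, so both Tef E-boxes and the Nfil3 RORE core lie inside the annotated genes. Of all 32851 RefSeq promoters 7.15% held an E-box, 0.0883% held 3 or more, 2.61% held the RORE core and 2.32% held a D-box. Among 15 core clock genes with a promoter in the table, which lacks Per2, a D-box was found for Per3, Rorb and Timeless, and an E-box for Cry1 and Per1. The RORE core was found for Arntl. In Rorb, Per1 and Arntl the motif was at 1 of 2 annotated starts. These matches describe letters in a window and do not show that a factor binds there. Only these exact letters in this window were searched, so a gene without a match may hold such a site elsewhere or in a variant form.

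Levels can be compared between genes only per length, on the FPKM scale of the deposited table. In old hearts Tef had the highest mean of the 8 at 22.6 ± 1.94 FPKM, followed by Nfil3 at 11.2 ± 6.13, Bhlhe40 at 7.19 ± 2.37 and Dbp at 4.96 ± 3.95 FPKM (SD, n = 3). Ciart had 2.12 ± 0.824, Bhlhe41 2.12 ± 0.388, Rora 1.43 ± 0.0437 and Hlf 1.02 ± 0.159 FPKM in old hearts (SD, n = 3). Tef was the highest of the 8 in each old heart, but in old 2 its 20.8 FPKM was near the 17.6 FPKM of Nfil3. In young hearts the first 4 places were the same, with Tef at 19.9 ± 1.67, Nfil3 at 12.4 ± 2.12, Bhlhe40 at 4.29 ± 0.388 and Dbp at 3.01 ± 0.612 FPKM (SD, n = 3). The lower places differed, since Rora at 2.09 ± 0.126 and Hlf at 1.84 ± 0.356 FPKM stood above Bhlhe41 at 1.45 ± 0.201 and Ciart at 1.40 ± 0.239 FPKM in young hearts. In old hearts the ranges of Nfil3 and Bhlhe40, Bhlhe40 and Dbp, Dbp and Ciart, and Ciart and Bhlhe41 overlapped. Within each old heart, however, Bhlhe40 was above Dbp and Dbp above Ciart. The order of Nfil3 and Bhlhe40, and that of Ciart and Bhlhe41, differed between old hearts. In young hearts Rora overlapped Hlf, Hlf overlapped Bhlhe41 and Bhlhe41 overlapped Ciart.

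Libraries held 13673856 to 15583364 counts, and the 8 genes had 42 to 3011 reads per library. The smallest of these counts, for Ciart, carries a counting SD of 15.4%, which covers counting error only. Old 1 stood apart from the other old hearts: on the first principal component of log2 CPM, which held 56.0% of the variance, it scored 15.0, with 45.9 and 48.0 for old 2 and old 3 and −38.3 to −33.4 for young hearts. The median SD of log2 CPM was 0.27 in old and 0.14 in young hearts. Defining heart muscle genes were abundant, as 8 markers summed to 44730 to 50338 CPM in old and 52685 to 59499 CPM in young hearts, with 1 higher and 3 lower in old hearts. The labels' extraction text names NRVMs, an abbreviation left unexplained there, although the tissue label is heart. Values below are CPM scaled by TMM, log2 fold changes are old over young ± SE, and adjusted p values come from edgeR's quasi-likelihood test with Benjamini-Hochberg adjustment over 14413 genes.

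Of the 8 genes Bhlhe40 rose and Hlf and Rora fell with age, and the other 5 did not pass the threshold of 0.05. Over all genes tested 15.1% passed, 8.72% higher and 6.36% lower in old hearts. The median log2 fold change was 0.37 over the 8 genes and 0.02 over all genes tested. Without old 1 it was 0.18 over the 8 genes and −0.0004 over all genes tested. The 3 old hearts lay beyond the 3 young ones for Hlf, Rora, Bhlhe40 and Bhlhe41, 4 of the 8, where 37.3% of all tested genes showed such a separation. Of the 4, 2 were higher and 2 lower in old hearts, against 18.8% and 18.4% of all tested genes. With 1 library left out the count that passed was 0 of 8 without young 1, young 3 or old 3 (3.63%, 4.18% and 6.23% of all genes passed), 1 without young 2 (3.65%), 2 without old 2 (10.4%) and 3 without old 1 (37.9%). On the log2 FPKM scale 0 of 8 passed with limma, where 12.7% of all genes did. In bulk tissue, fewer cells of a type and less RNA per cell cannot be told apart.

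**Figure D1:**
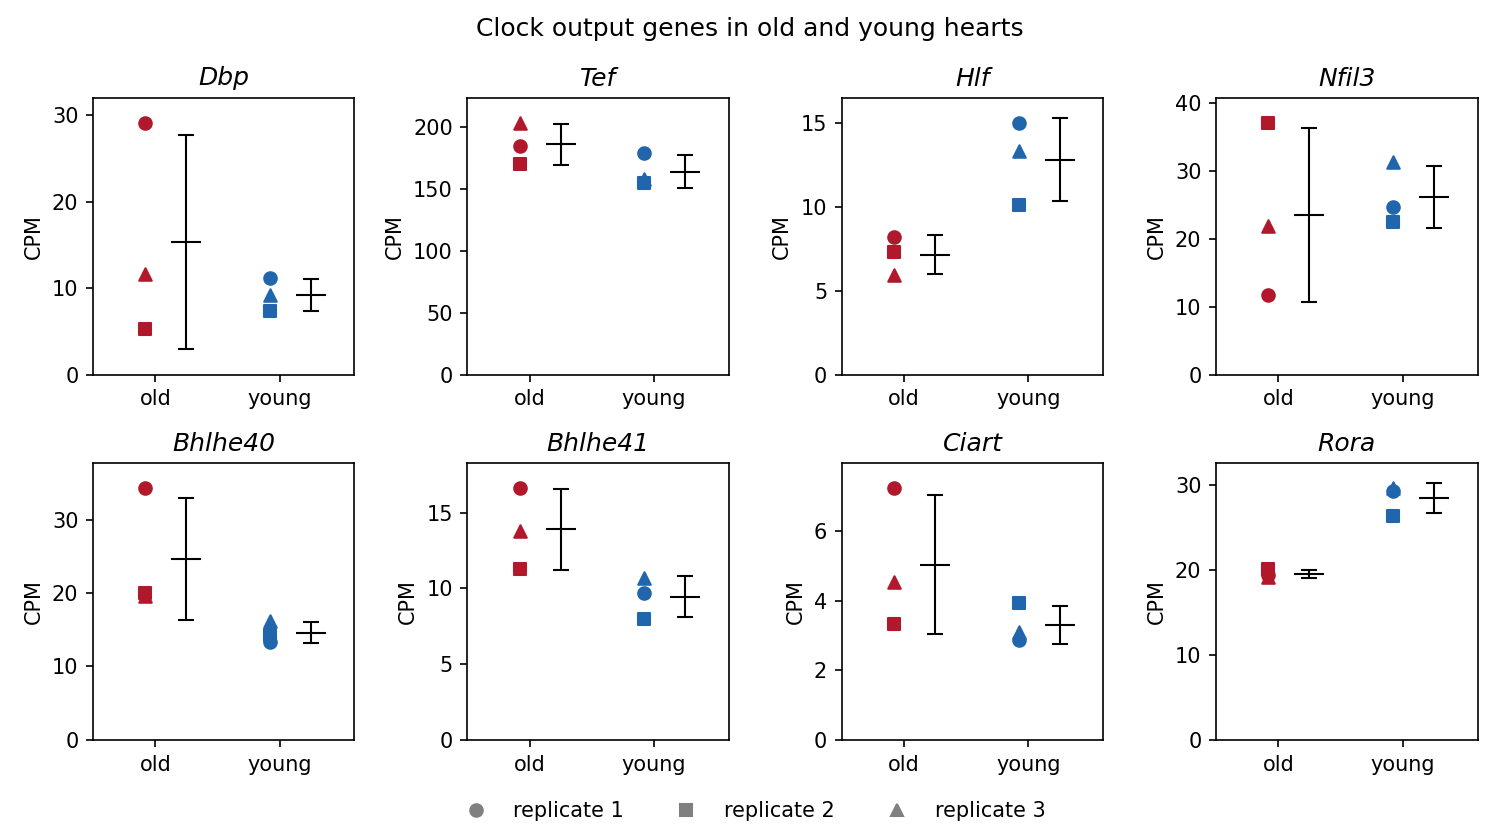
Expression of the 8 genes in CPM (vertical axes, starting at 0) in each old and young heart, with marker shapes for the replicate and a bar for the mean ± SD (n = 3). Hlf and Rora show old hearts below young ones without overlap, and Dbp shows old 1 at 29.1 CPM with the other 5 hearts between 5.25 and 11.7 CPM.

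Of the 3 PAR bZIP activators 1 passed the test. Hlf, which activates D-box genes and is also known from leukaemia fusion proteins in human, had 8.21, 7.31 and 5.94 CPM in old 1, 2 and 3, against 15.0, 10.1 and 13.3 CPM in young 1, 2 and 3. Every old heart was below every young heart. Hlf fell, with a mean of 7.15 ± 1.14 CPM in old and 12.8 ± 2.48 CPM in young hearts (SD, n = 3), a log2 fold change of −0.84 ± 0.21 (edgeR adjusted p = 0.0279; ENSMUSG00000003949, chromosome 11, 90336536 to 90390895). The call ended without young 1, young 3, old 2 or old 3, with log2 fold changes of −0.99 to −0.71 over all 6 omissions, and on the FPKM scale (limma adjusted p = 0.0548 with a pseudocount of 0.1 and 0.0562 with 1).

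Dbp, a strongly rhythmic factor first described at the albumin promoter, had 29.1, 5.25 and 11.7 CPM in old 1, 2 and 3, against 11.1, 7.39 and 9.21 CPM in young 1, 2 and 3. The highest and the lowest of the 6 values were both in old hearts, so the ages overlapped. The log2 fold change was 0.74 ± 0.49 (edgeR adjusted p = 0.325; ENSMUSG00000059824, chromosome 7, 45705088 to 45710203). Without old 1 it was −0.13 (edgeR adjusted p = 0.758), so the direction rested on that heart. The highest old heart had 5.55 times the CPM of the lowest, while the ratio was 1.51 among young hearts. Only 153 of the 14413 genes had an SD of log2 CPM in old hearts at least as large as that of Dbp, 1.22.

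Tef, the third PAR bZIP gene, was the steadiest of them, with 185, 170.1 and 203 CPM in old 1, 2 and 3 and 179, 154 and 158 CPM in young 1, 2 and 3. The ages overlapped, and the log2 fold change was 0.18 ± 0.13 (edgeR adjusted p = 0.363; ENSMUSG00000022389, chromosome 15, 81802421 to 81826863). Among old hearts the highest Tef value was 1.19 times the lowest.

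Nfil3, the repressor that shares D-box sites with these activators, showed the opposite order of old hearts to Dbp. It had 11.7, 37.1 and 21.9 CPM in old 1, 2 and 3, against 24.7, 22.5 and 31.3 CPM in young 1, 2 and 3. Old 1 was the lowest and old 2 the highest of the 6 hearts, which is the reverse of Dbp. The log2 fold change was −0.16 ± 0.34 (edgeR adjusted p = 0.783; ENSMUSG00000056749, chromosome 13, 52967209 to 52981073), and 0.17 without old 1. The SD of log2 CPM was 0.83 in old and 0.25 in young hearts.

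On the FPKM scale the activators and the repressor can be set side by side. The FPKM sum of Dbp, Tef and Hlf was 32.7, 23.6 and 29.3 in old 1, 2 and 3, and 27.7, 22.7 and 24.0 in young 1, 2 and 3. Divided by the FPKM of Nfil3 it was 5.98, 1.34 and 2.83 in old 1, 2 and 3, and 2.35, 2.13 and 1.63 in young 1, 2 and 3. The lowest and the highest ratio thus belonged to old hearts, with a mean of 3.39 ± 2.37 in old and 2.04 ± 0.373 in young hearts (SD, n = 3). Tef made up 67.9% to 88.3% of the summed FPKM in old and 79.0% to 83.0% in young hearts. Dbp made up 28.6% of the sum in old 1, 7.27% in old 2 and 12.9% in old 3, and 10.6% to 13.2% in young hearts. The Hlf share was 2.90% to 4.46% in old hearts, below its 6.41% to 7.93% in young hearts.

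**Figure D2:**
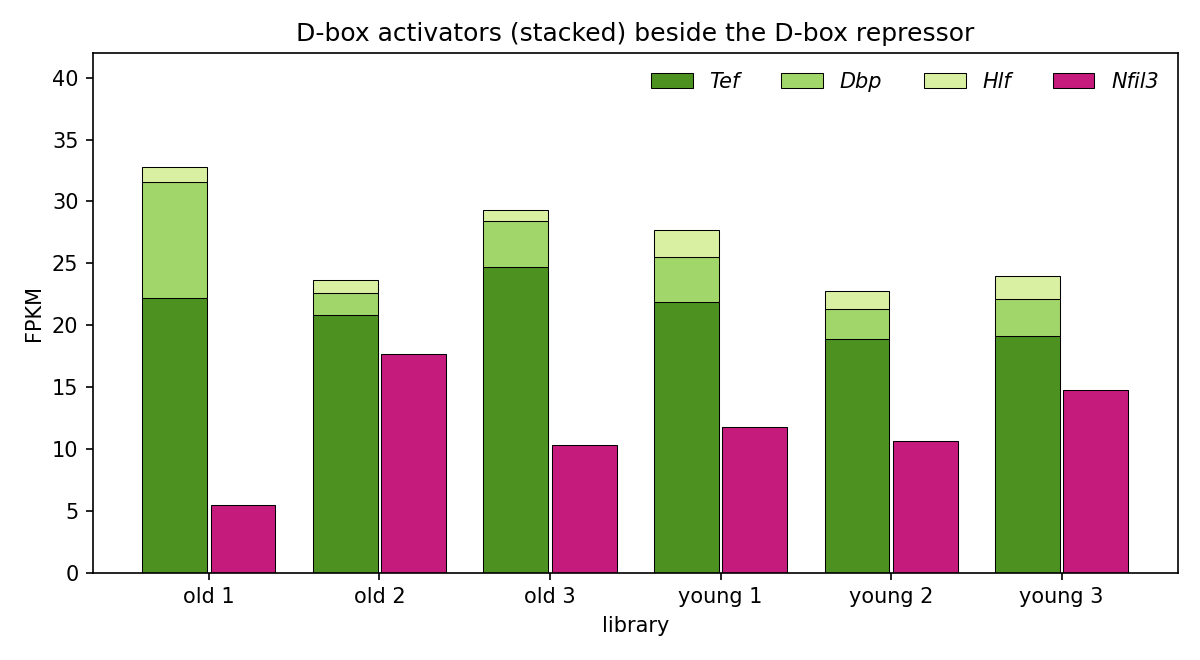
FPKM of the D-box activators Tef, Dbp and Hlf (stacked bar) beside the D-box repressor Nfil3 (single bar) in each old and young heart. In old 1 the activators sum to 32.7 FPKM beside 5.47 FPKM of Nfil3, and in old 2 they sum to 23.6 FPKM beside 17.6 FPKM.

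Both DEC repressor genes were higher in each old heart than in any young heart, although 1 of the 2 passed the test. Bhlhe40, an E-box repressor that also responds to hypoxia and cytokines, had 34.3, 20.1 and 19.6 CPM in old 1, 2 and 3, against 13.4, 14.3 and 16.2 CPM in young 1, 2 and 3. Old 1 stood well above the other two old hearts. Bhlhe40 rose by a log2 fold change of 0.75 ± 0.22 (edgeR adjusted p = 0.0497; ENSMUSG00000030103, chromosome 6, 108660629 to 108666925). The value is at the threshold: the call held without old 1 (0.44, edgeR adjusted p = 0.0276) and without old 2 (0.88, 0.0469), and ended without any of young 1, young 2, young 3 or old 3. It also ended with upper-quartile factors, limma-voom, the FPKM scale and unnamed gene models kept (adjusted p = 0.0513 to 0.0796).

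Bhlhe41, the second DEC gene, had 16.6, 11.3 and 13.8 CPM in old 1, 2 and 3, and 9.69, 8.0 and 10.7 CPM in young 1, 2 and 3. The groups did not overlap, but the gap between old 2 and young 3 was small. Its log2 fold change of 0.56 ± 0.20 did not pass (edgeR adjusted p = 0.0852; ENSMUSG00000030256, chromosome 6, 145858243 to 145865558), and it was 0.40 without old 1.

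Ciart, the inhibitor of CLOCK-BMAL1 with 3 E-boxes in its promoter, had 7.23, 3.33 and 4.53 CPM in old 1, 2 and 3, against 2.89, 3.93 and 3.09 CPM in young 1, 2 and 3. Old 2 fell inside the young range, so the ages overlapped. The log2 fold change was 0.61 ± 0.31 (edgeR adjusted p = 0.202; ENSMUSG00000038550, chromosome 3, 95878503 to 95882251), and 0.25 without old 1. Its highest old value was 2.17 times its lowest, against 1.36 times in young hearts.

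Rora, which activates Arntl and other genes through RORE sequences, had the smallest spread among old hearts of the 8. It had 19.4, 20.1 and 19.1 CPM in old 1, 2 and 3, against 29.3, 26.4 and 29.6 CPM in young 1, 2 and 3. The old hearts lay close to one another and below all young hearts. They rest on 317, 283 and 258 reads, and at 258 reads the counting SD alone is 6.23%. The closeness of the old hearts thus cannot be read as a trait of the gene. Rora fell, with means of 19.5 ± 0.474 CPM in old and 28.4 ± 1.79 CPM in young hearts (SD, n = 3), a log2 fold change of −0.54 ± 0.12 (edgeR adjusted p = 0.0216; ENSMUSG00000032238, chromosome 9, 68653786 to 69388246). With a library left out the log2 fold change was −0.60 to −0.52. The call ended without young 1, young 2, young 3 or old 3 (edgeR adjusted p = 0.0704 to 0.102) and on the FPKM scale (limma adjusted p = 0.0642 and 0.067 with pseudocounts of 0.1 and 1).

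**Figure D3:**
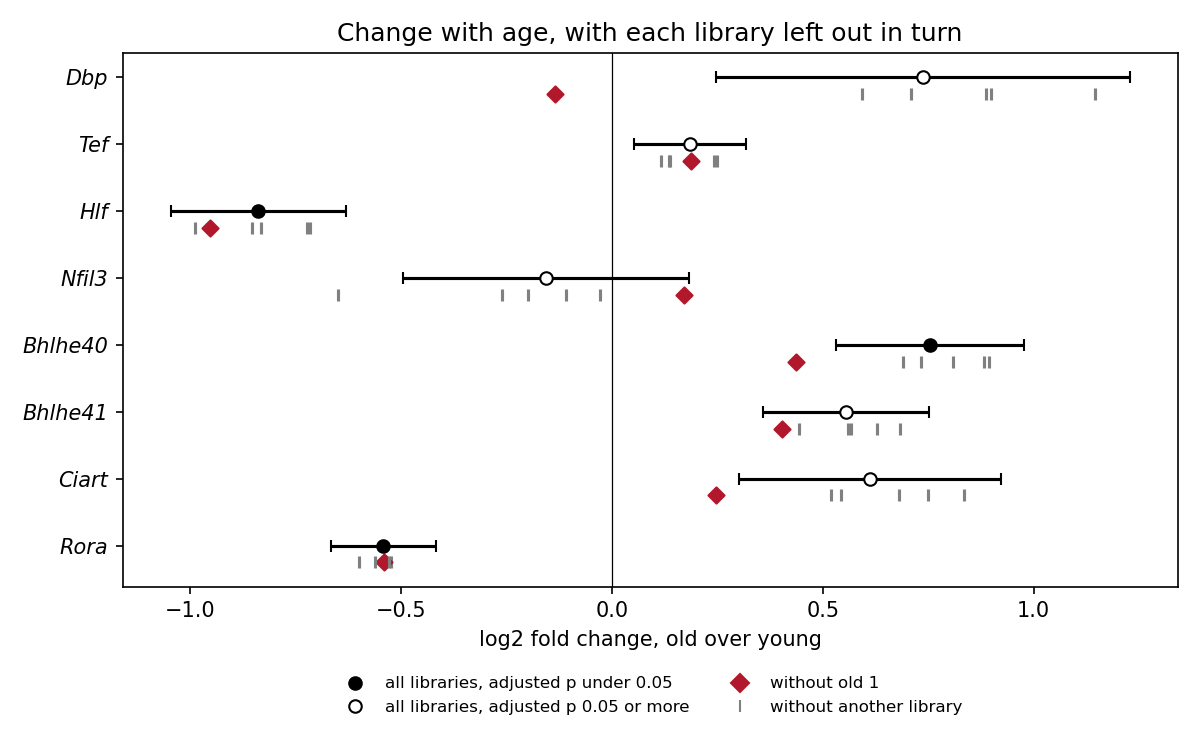
Log2 fold change of old over young (horizontal axis) for each of the 8 genes, as the value from all libraries ± SE (circle, filled where the edgeR adjusted p is under 0.05), without old 1 (diamond) and without each other library (ticks). Omitting old 1 moves Dbp to −0.13 and Nfil3 to 0.17, across the zero line, while Rora stays between −0.60 and −0.52.

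In 5 of the 8 genes old 1 stood at an end of the 6 hearts. It was the highest of the 6 hearts for Dbp, Bhlhe40, Bhlhe41 and Ciart, and the lowest for Nfil3; over all tested genes it was the highest in 19.1% and the lowest in 17.2%. On the log2 CPM scale old 1 exceeded the mean of old 2 and old 3 by 1.88 for Dbp, 0.87 for Ciart, 0.78 for Bhlhe40 and 0.41 for Bhlhe41. For Nfil3 the same difference was −1.27, and for Tef and Rora it was −0.01 each. Dbp ranked 79 among 14413 genes by this difference, counted from the highest. Without old 1 the 3 of 8 genes that passed were Bhlhe40, Hlf and Rora, in a fit where 37.9% of all genes passed.

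Old 1 also differed from the other old hearts in markers of atrial muscle. The atrial markers Myl7, Sln, Nppa, Myl4 and Bmp10 summed to 309, 22.2 and 84.4 CPM in old 1, 2 and 3, and to 49.0 to 125 CPM in young hearts. None of the 4 that could be tested passed with edgeR, where 1 had an unadjusted p under 0.05; 0 passed with DESeq2 or limma-voom, and 3 passed as higher in old hearts with edgeR and no filter on low counts. Bmp10 was at 0 in all hearts except old 1, where it had 0.0613 CPM. Summed fibroblast markers were 1147, 488 and 693 CPM in old 1, 2 and 3, and 767 to 1037 CPM in young hearts. Most of that sum is Dcn, with a log2 fold change of 0.02 ± 0.29. Of the 6 markers 5 had a negative log2 fold change and 1 a positive one, and 1 passed, Col1a1 (−1.17 ± 0.23, edgeR adjusted p = 0.0117). Without old 1, 4 of the 6 passed as lower in old hearts, in a fit where 37.9% of all genes passed. The part of atrial or fibroblast content in the values of Dbp, Nfil3, Bhlhe40 and Ciart was not tested.

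Markers of other cell types also differed between the ages. Endothelial markers summed to 2071 to 2169 CPM in old and 2384 to 2868 CPM in young hearts, with 3 of 6 lower and 0 higher by edgeR. The 6 macrophage markers summed to 109 to 143 CPM in old and 94.2 to 108 CPM in young hearts, with 1 higher and 0 lower. B and T cell markers summed to 2.91 to 4.04 CPM in old and 1.90 to 3.78 CPM in young hearts, and adipocyte markers to at most 2.02 CPM in old and 2.06 CPM in young hearts. The part of these cell types, and of fibroblasts, in the changes of Hlf, Rora and Bhlhe40 was not tested. Smooth muscle and pericyte markers summed to 554 to 861 CPM in old and 899 to 1086 CPM in young hearts, with 1 of 5 lower, the pericyte marker Kcnj8. The largest part of that sum is Rgs5, a pericyte marker, at 364 ± 164 CPM in old and 672 ± 46.0 CPM in young hearts (SD, n = 3). The smooth muscle markers Acta2 and Myh11 had log2 fold changes of 0.51 ± 0.36 and 0.60 ± 0.37 and did not pass. The skeletal muscle list, most of whose sum is Ckm and Acta1, genes that heart muscle also expresses, had 675 to 884 CPM in old and 1410.5 to 1647 CPM in young hearts, and Myh4 had no read in any heart. Of 10 immediate early genes, which respond within minutes to handling and include no member, 0 passed with edgeR, DESeq2 or limma-voom, 3 had an unadjusted p under 0.05 by each, and 1 passed with edgeR and no filter on low counts. They summed to 257 to 335 CPM in old and 231 to 404 CPM in young hearts.

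Reads could be shared between overlapping genes, because no source used here says whether counting used strand. By GENCODE M21, Dbp shares 539 exonic bases with Sphk2 on the opposite strand. Sphk2 had 17.2, 26.0 and 20.3 CPM in old 1, 2 and 3 and 21.8 to 23.5 CPM in young hearts, with its lowest value in old 1. Bhlhe41 shares 1280 exonic bases with the opposite-strand model Gm43909, which is not used here. Tef, Bhlhe40 and Rora share 193, 118 and 82 exonic bases with antisense models that had too few reads to be tested. The antisense gene C920021L13Rik spans part of Ciart without a shared exonic base and fell (log2 fold change −0.996 ± 0.26, edgeR adjusted p = 0.0337). That call ended without young 1, young 2, young 3, old 2 or old 3 (edgeR adjusted p = 0.0529 to 0.125).

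The core loop gave a mixed picture beside these output genes. Of 20 core clock genes 19 could be tested, and 3 were higher and 1 lower in old hearts, 21.1% of those tested against 15.1% of all genes. The median log2 fold change was −0.16. Per2, which encodes an inhibitor of CLOCK-BMAL1, had 41.98, 66.8 and 58.3 CPM in old 1, 2 and 3 and 34.4, 24.6 and 21.2 CPM in young 1, 2 and 3 (log2 fold change 1.06 ± 0.22, edgeR adjusted p = 0.0142). It rose without overlap, yet old 1 was its lowest old heart, unlike Dbp. Nr1d2, which encodes the repressor REV-ERBβ, had 99.5, 92.9 and 132 CPM in old and 51.4, 54.1 and 57.7 CPM in young hearts (0.99 ± 0.16, edgeR adjusted p = 0.00546). Its rise passed in each fit with a library left out. Timeless, named after its values were seen, rose by 1.01 ± 0.21 (edgeR adjusted p = 0.0155), and Cry1 fell by a log2 fold change of −0.53 ± 0.15 (edgeR adjusted p = 0.0485). The Timeless call ended without young 1, young 2, young 3 or old 3, and the Per2 call without young 2, young 3 or old 3. The Cry1 call held without old 1 (edgeR adjusted p = 0.0246) and ended without each other library (0.0742 to 0.175). It also ended with limma-voom (adjusted p = 0.0526), and in edgeR with no filter on low counts (0.0616) or a replicate block (0.0913). The count that passed was 2 without young 1 and 1 without young 2, young 3 or old 3, in fits where 3.63% to 6.23% of all genes passed, and Nr1d2 passed in each.

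Nr1d1, which encodes REV-ERBα, a repressor of RORE genes such as Nfil3 and Arntl, had the same order of old hearts as Dbp. It had 60.0, 20.9 and 39.0 CPM in old 1, 2 and 3, against 11.6, 23.1 and 19.6 CPM in young 1, 2 and 3. Old 1 was highest and old 2 lowest among old hearts, as for Dbp, Ciart and Bhlhe41. The log2 fold change of 1.14 ± 0.36 did not pass (edgeR adjusted p = 0.06), and passed without old 2 (0.0182), with DESeq2 (0.00672) and with no filter on low counts (0.0015). Arntl, the other gene here with a RORE core at a start, had 21.6, 34.2 and 25.8 CPM in old 1, 2 and 3 and 23.4, 31.0 and 28.6 CPM in young 1, 2 and 3. Its old hearts ran in the order of Nfil3, with old 2 highest and old 1 lowest, and its log2 fold change was −0.03 ± 0.19 (edgeR adjusted p = 0.941). Among young hearts, however, Arntl and Nr1d1 ran in the same order, with young 2 highest and young 1 lowest. Clock and Cry2 were among the other core genes with the old-heart order of Nr1d1. Whether REV-ERBα had a part in these orders was not tested.

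The orders of old hearts described here were also frequent among all genes. The order old 1, old 3, old 2 from the highest was seen for 3 of the 8 output genes, for 6 of the 19 tested core genes and for 22.3% of all tested genes. The reverse order was seen for Nfil3, for 5 core genes, Arntl and Per2 among them, and for 22.8% of all genes. Clock (−0.26 ± 0.20), Npas2 (−0.49 ± 0.26), Per1 (−0.06 ± 0.14), Per3 (0.00 ± 0.23) and Cry2 (−0.35 ± 0.19) did not pass, with edgeR adjusted p values of 0.231 to 0.993. Without old 1 the count of core genes that passed was 8 of 19, 4 higher and 4 lower, with Clock (−0.54) and Cry2 (−0.58) among the lower, in a fit where 37.9% of all genes passed.

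**Figure D4:**
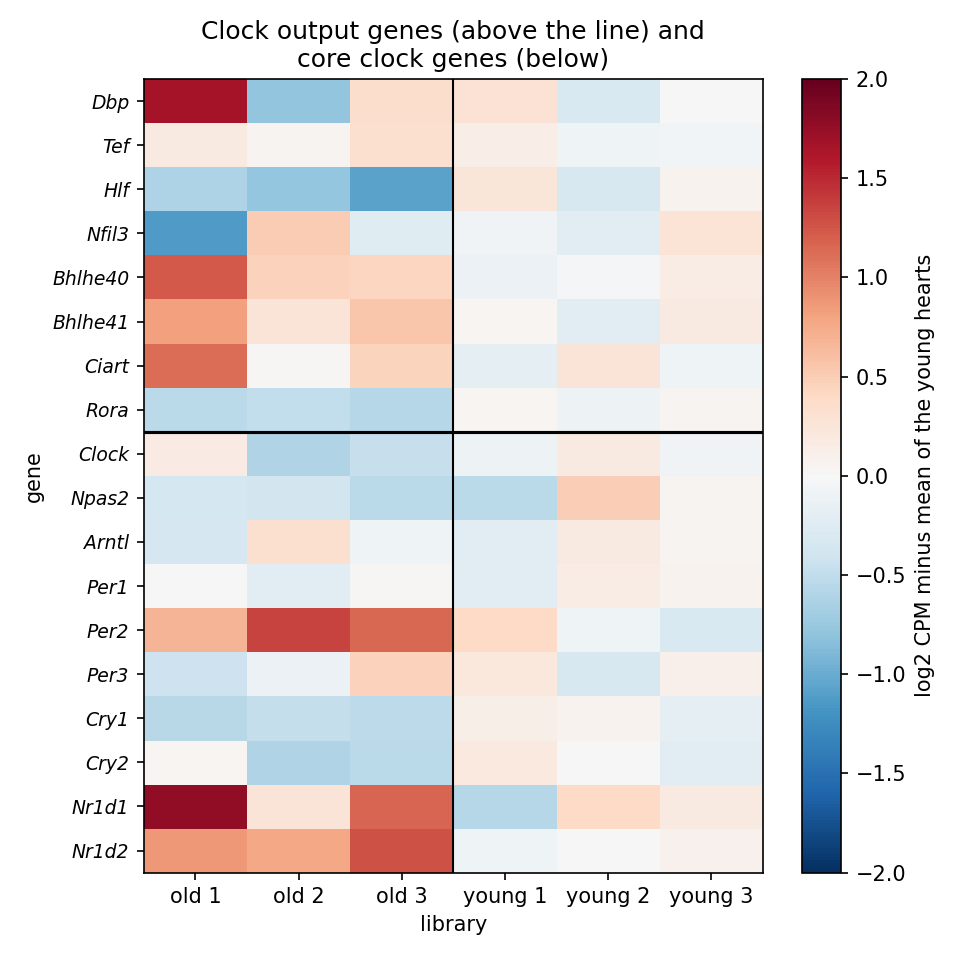
Log2 CPM minus the mean of the young hearts (colour) for the 8 clock output genes above the line and 10 core clock genes below it, in each old and young heart. Old 1 is red for Dbp, Bhlhe40, Ciart and Nr1d1 and blue for Nfil3, while Hlf and Rora are blue in all 3 old hearts.

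Of 8 tested genes described as targets of the PAR bZIP proteins, 1 was higher and 1 lower in old hearts, where 8.72% of all genes were higher and 6.36% lower. Cyp2b10, a cytochrome P450 gene with close copies that can share its reads, had 4.04, 3.76 and 4.53 CPM in old 1, 2 and 3 and 0.962, 1.15 and 1.09 CPM in young 1, 2 and 3 (log2 fold change 1.93 ± 0.27, edgeR adjusted p = 0.00361). Its counts were low, with 66, 53 and 61 reads in old and 14, 17 and 17 reads in young hearts. Over the alternatives that kept all libraries the Cyp2b10 log2 fold change was 0.94 to 1.94. Alas1, which catalyses the first step of haem synthesis, had 61.5, 46.5 and 43.0 CPM in old and 86.9, 78.3 and 92.8 CPM in young hearts (−0.77 ± 0.16, edgeR adjusted p = 0.0142). In neither gene did old 1 stand out as it did for Dbp. The call for Alas1 ended without young 1, young 2, young 3 or old 3.

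Among 20 genes described as rhythmic in heart or several tissues, 1 was higher and 5 were lower in old hearts, against 15.1% of all genes in either direction. The gene that rose was Tcap, which encodes the titin cap protein telethonin (log2 fold change 1.07 ± 0.17, edgeR adjusted p = 0.00506). Those that fell were the triglyceride synthesis gene Dgat2 (−1.08 ± 0.18), the cell cycle kinase gene Wee1 (−1.17 ± 0.22), the endoplasmic reticulum gene Herpud1 (−0.88 ± 0.18), the transcription factor gene Klf9 (−0.98 ± 0.26) and Pdk4 (−0.74 ± 0.21), whose kinase holds back pyruvate dehydrogenase (edgeR adjusted p = 0.00678 to 0.0426). Wee1 had 2.39, 2.34 and 2.23 CPM in old 1, 2 and 3 and 4.88, 5.63 and 5.21 CPM in young 1, 2 and 3. These rest on 39, 33 and 30 reads in old and 71, 83 and 81 reads in young hearts. At counts this low, the closeness within an age cannot be read as a trait of the gene. Without old 3 the count was 3 of 20, where 6.23% of all genes passed. Without young 1, 2 or 3 it was 3, 2 and 3, where 3.63%, 3.65% and 4.18% of all genes passed. Without old 1 it was 8, where 37.9% of all genes passed. The calls for Tcap and Dgat2 held in all alternatives. Pdk4 lost its call on the FPKM scale, with a replicate block and without each library except old 1. Klf9 lost its call without young 1, young 2, young 3 or old 3. Herpud1 lost it without young 1, young 2 or old 3, and Wee1 without young 2 or young 3.

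Patterns across the 6 hearts were compared by the root-mean-square difference of centred log2 CPM over 12875 named genes. The gene nearest to Dbp was Frzb at 0.24, and the nearest clock gene, Rorb, ranked 125 at 0.47. Nfil3 lay nearest to Ano4 at 0.03. Bhlhe40 and Bhlhe41 were each other's nearest clock gene at 0.21, but 113 and 261 in rank among all genes, and Bhlhe40 ranked 107 from Ciart at 0.22. Hlf lay nearest to the pseudogene Oaz2-ps at 0.07 and then to Abhd17c at 0.08, and its nearest clock gene was Rora, ranked 384 at 0.22. The nearest genes were Trmt112 for Tef (0.04), Rpgr for Bhlhe41 (0.09), Bco2 for Ciart (0.09) and Dhrs11 for Rora (0.04). The second nearest were Plscr1 for Dbp, Synrg for Tef, Pank1 for Nfil3, Xirp2 for Bhlhe40, Ang for Bhlhe41, Clec4a1 for Ciart and Ndufab1 for Rora, at 0.04 to 0.28. With 6 hearts and many genes, such likeness is a description of these libraries.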

How the data were processed

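The submitters' processing notes name HISAT2, featureCounts, Subread and the build GRCm38.p6; no version, annotation release or strand setting is stated. The authors' deposited counts are whole reads per gene. The authors' deposited FPKM values cover 13170 gene models. Models without a name (571, with 0.295% to 0.368% of counts) were left out. In R 4.3.3 with edgeR 4.0.16, filterByExpr and TMM factors preceded a quasi-likelihood F test of age. Each SE was computed from the log2 fold change and its F value. Alternatives used DESeq2 1.42.0, limma 3.58.1 (voom, or trend on log2(FPKM + 1 or 0.1)), other factors and filters, a replicate block and each library left out. The code was tested on simulated data. The members, lists and alternatives were chosen with earlier results of these data known. Named were the 8 genes, 10 core clock genes, genes overlapping the members, the 2 nearest patterns per member, and called genes of 2 target lists (at most 8 per list). The macrophage marker Adgre1 was found by identifier. Replicates are separate biological samples per the series' design text. Some genes that fall under this rule or on a list are not reported here.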

Additional observations from a re-analysis of the deposited data

How the results depend on the processing

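Alternatives for 45 named genes gave 712 values: 595 kept direction and side of the threshold, 87 lost the call, 12 gained it and 18 changed sign. Of the 8 clock output genes 3 passed in edgeR, 0 on the FPKM scale with either pseudocount (limma, 4 with an unadjusted p under 0.05) and 0 to 3 with a library left out; without young 1, young 3 or old 3 none passed in edgeR, and 4 had an unadjusted p under 0.05. Core clock genes numbered 1 to 8, and all genes 539 to 5570 (the highest without old 1), with a library left out. Same-numbered hearts did not deviate together (correlations −0.09, −0.07 and 0.03); with the replicate block 1 of the 8 passed, Hlf, with 3 core genes and 1774 genes (12.3%) in all. With a library left out, log2 fold changes were −0.13 to 1.14 for Dbp, −0.65 to 0.17 for Nfil3, −0.22 to 0.12 for Arntl, −0.17 to 0.0079 for Per1, −0.28 to 0.18 for Per3, −0.21 to 1.24 for Frzb, −0.71 to 0.13 for Ano4 and −0.28 to 0.027 for Sphk2. Per3, near 0, was also below 0 with upper-quartile factors (−0.038), no filter on low counts (−0.0074), limma-voom (−0.030), the FPKM scale (−0.014 and −0.025) and the block (−0.019). The causes were not tested. The lowest counts per library were 42 for Ciart, 74 for Dbp and 80 for Hlf.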
